A study of Mus musculus with 6 samples.

Results

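Bpifa2, Dcpp1, Dcpp2, Dcpp3, Amy1 and Bpifb1 are secretory genes known from the glands that lie beside the submandibular gland (SMG), and their counts were followed here in each SMG library on its own. The 6 genes were selected by name from the 43280 rows of the raw count table, with their counts in these libraries already known, so their levels and fold changes are given as a description. Where the fit over all rows gave a member a p-value, this is stated below, and nothing is read from it. All 6 rows were found. Bpifb1 had 0 counts throughout, and the other 5 passed the filter of at least 10 counts summed over the libraries.

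The libraries came from SMGs of female mice, 3 labelled Wildtype (WT 1, 4 and 5) and 3 labelled Hs3st3a1;3b1 DKO (DKO 1, 4 and 5), the latter a double knockout of 2 heparan sulfate 3-O-sulfotransferase genes. The study describes a frameshift deletion in exon 1 of Hs3st3a1 and a LacZ cassette in Hs3st3b1 on the same allele, on a C57BL/6 background, with WT littermates as controls. Neither allele is limited to a cell type. The study calls the glands adult. Which founder line gave them, and the age of the mice in days or weeks, are not given in the sources used here. Nothing in the labels says how far the neighbouring glands were dissected away. The study used 3 female SMGs per genotype, but separate animals are not stated for each library. Any p-value therefore measures only the spread between these libraries, part of which may be technical. Hs3st3a1 had 15, 11 and 15 counts in WT 1, 4 and 5 and 11, 8 and 13 in DKO 1, 4 and 5, and Hs3st3b1 had 173, 203 and 261 against 255, 120 and 189. Both genes were thus still counted in the DKO-labelled libraries, whereas the study found neither expressed in adult DKO SMGs by quantitative PCR. Why the measures differ was not tested. Where the reads lie within either gene was not examined. These counts therefore do not check the genotypes, which are given as labelled. Total counts ranged from 23674258 to 29611975 per library.

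Mice have 3 pairs of major salivary glands. The SMG and the sublingual gland share a capsule, and the parotid gland lies close by. Sublingual acini are mainly mucous and secrete gel-forming mucin, with caps of serous cells called demilunes. Parotid acini are serous and secrete amylase and proline-rich proteins. Bpifa2 encodes the parotid secretory protein, which binds bacteria and is also made by sublingual demilunes and by the SMG of newborn mice. The Dcpp genes encode the demilune cell and parotid proteins. Amy1 encodes salivary amylase, which digests starch, and Bpifb1 encodes a related BPI fold protein best known from the airway.

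The genes lie at 3 places in the genome (GENCODE M21, GRCm38). Bpifa2 is on the plus strand of chromosome 2 (154008265 to 154016079), 175 kb before Bpifb1 (154190818 to 154220369, plus strand). Amy1 is on the minus strand of chromosome 3 (113555710 to 113606699). Dcpp1 (23880876 to 23882853), Dcpp2 (23880880 to 23900788) and Dcpp3 (23917458 to 23919441) follow one another on the plus strand of chromosome 17 within 38.6 kb, and one annotated Dcpp2 transcript starts inside the first exon of Dcpp1. The 3 Dcpp genes are close copies. Of all 50-base words in the Dcpp1 transcript, 46.5% also occur in a Dcpp2 or Dcpp3 transcript, and the values are 44.2% for Dcpp2 and 45.8% for Dcpp3. Reads from the shared stretches may have been split among the copies or dropped, so their sum is firmer than each count. Amy1 shared 1.53% of its words with the 6 pancreatic amylase genes, and Bpifa2 shared 0 of its 1995 words with the other BPI fold genes.

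The likeness of the Dcpp genes extends to the bases before their start sites. Because these genes were high in the same libraries, the 150 bases before the RefSeq start (GRCm38.p6, plus strand) are shown for the 3 copies and for Bpifa2, with the letters TATAA in capitals. The windows are chr17:23880726-23880875, chr17:23898572-23898721, chr17:23917308-23917457 and chr2:154008126-154008275.
Dcpp1: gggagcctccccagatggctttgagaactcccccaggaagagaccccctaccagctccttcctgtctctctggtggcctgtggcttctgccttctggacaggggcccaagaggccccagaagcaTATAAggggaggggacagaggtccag
Dcpp2: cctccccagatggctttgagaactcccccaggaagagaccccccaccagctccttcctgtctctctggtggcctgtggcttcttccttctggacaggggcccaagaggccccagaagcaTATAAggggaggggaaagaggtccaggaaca
Dcpp3: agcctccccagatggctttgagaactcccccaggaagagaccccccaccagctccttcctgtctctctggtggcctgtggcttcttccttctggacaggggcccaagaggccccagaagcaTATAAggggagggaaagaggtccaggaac
Bpifa2: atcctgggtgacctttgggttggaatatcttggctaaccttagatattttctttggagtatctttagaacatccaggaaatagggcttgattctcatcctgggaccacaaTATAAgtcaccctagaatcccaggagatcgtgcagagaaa

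Aligned end to end, the Dcpp2 and Dcpp3 windows shared 148 bases, with 0 mismatches and 4 gap bases. Dcpp1 and Dcpp2 had 3 mismatches and 10 gap bases. The Bpifa2 window matched the Dcpp1 window at 80 of 171 aligned positions. TATAA was searched on both strands in the 50 bases before the start and was present in all 4 windows, against 6.36% of the 32851 promoter windows of the RefSeq table. The 3 Dcpp windows are near copies, so these are not 4 separate cases. TATAA was not found in that stretch at either Amy1 start, although the window of the second Amy1 start holds it further upstream. It was found in that stretch at 1 of the 2 starts of Bpifb1, which had no counts.

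The library labelled WT 5 stood far above all others in the 5 detected genes, and DKO 1 stood second in 4 of them. Together the genes took 0.565% of all counts in WT 5 and 0.0236% in DKO 1. In the other 4 libraries they took between 8.51e-04% and 0.00155%. The high libraries are therefore 1 labelled WT and 1 labelled DKO, and as a share of the library total the groups overlap for 4 of the 5 detected genes. For Amy1 they did not overlap on that scale. There, 27.8% of all rows tested were likewise lower in every DKO library than in any WT library. Scaled instead by the size factors of the fit, 1.01 for WT 1 and 1.05 for DKO 1, the groups overlapped for Amy1. DKO 1 then stood above WT 1. In whole glands, fewer cells of a type and less RNA per cell cannot be told apart.

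Bpifa2 had 105, 101 and 88122 counts in WT 1, 4 and 5, and 3632, 70 and 80 in DKO 1, 4 and 5. As CPM, the count per 1000000 counts of the library, this was 3225 in WT 5, 128 in DKO 1 and 2.36 to 4.44 in the other 4 libraries. WT 5 was 727 times and DKO 1 29.0 times the highest of those 4. The group mean was 1078 ± 1860 CPM for WT and 44.6 ± 72.6 CPM for DKO (SD, n = 3 each), with each SD above its mean because 1 library carries it.

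The Dcpp genes had the same first and second library as Bpifa2, while the order of the other 4 differed. Dcpp1 had 14, 41 and 7360 counts in WT 1, 4 and 5, and 478, 55 and 20 in DKO 1, 4 and 5. Dcpp2 had 1, 13 and 19930 counts in the WT-labelled libraries, and 1044, 2 and 0 in the DKO-labelled ones. Its 0 in DKO 5 allows up to 3 counts, or 0.116 CPM, for counting error only. Dcpp3 had 6, 2 and 11251 counts in the WT-labelled libraries and 1277, 10 and 6 in the DKO-labelled ones. Summed, the Dcpp genes reached 1410 CPM in WT 5 and 99.0 CPM in DKO 1, against at most 2.26 CPM in the other 4 libraries.

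Amy1 departed from this order. Its counts were 216, 262 and 27624 in WT 1, 4 and 5, and 237, 161 and 114 in DKO 1, 4 and 5. WT 5, with 1011 CPM, was 104 times the next library. DKO 1, with 8.38 CPM, lay inside the range of the other 4 libraries, 4.41 to 9.71 CPM. The lowest WT library stood at 9.12 CPM, just above DKO 1. The group mean was 343 ± 578 CPM for WT and 6.08 ± 2.06 CPM for DKO (SD, n = 3 each). Amylase transcripts were thus counted at a low level in all 6 glands and at a high level in WT 5 alone.

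Bpifb1 was at 0 in all 6 libraries. With 3 counts as the limit that a count of 0 allows, its level was at most 0.127 CPM in the shallowest library. A difference between the groups was not detectable at this depth.

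**Figure D1:**
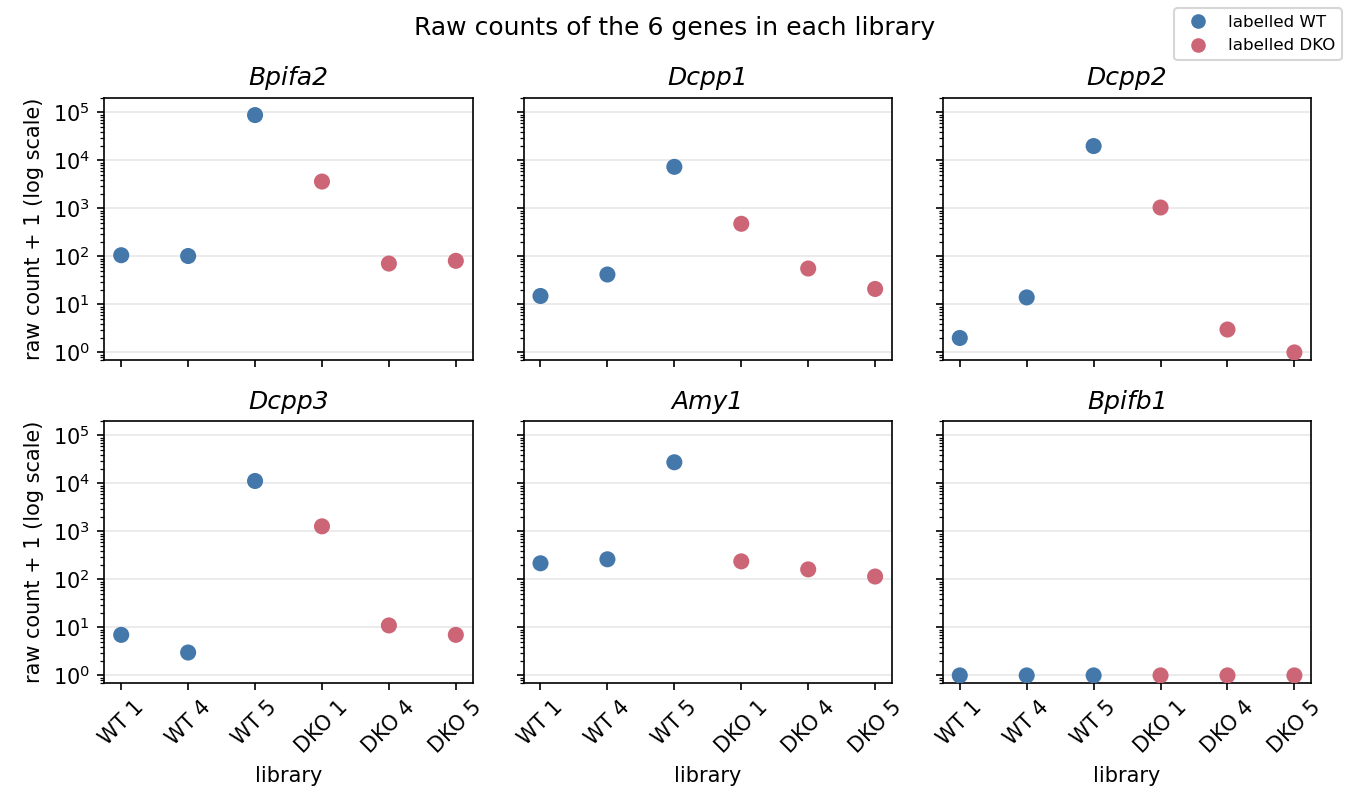
Raw counts of the 6 genes in each library, plotted as count + 1 on a log axis, with blue points for libraries labelled WT and red points for those labelled DKO. WT 5 is highest for the 5 detected genes, DKO 1 is raised for Bpifa2 and the Dcpp genes but not for Amy1, and Bpifb1 is at 0 in all 6 libraries.

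Levels of different genes were compared as CPM per kilobase of annotated exon (RPKM). In WT 5 the order was Bpifa2 (1605 RPKM), Dcpp2 (996 RPKM), Dcpp3 (589 RPKM), Dcpp1 (437 RPKM) and Amy1 (293 RPKM). In DKO 1 Dcpp3 (64.6 RPKM) and Bpifa2 (64.0 RPKM) were nearly level, followed by Dcpp2 (50.5 RPKM), Dcpp1 (27.4 RPKM) and Amy1 (2.43 RPKM). Each of these values rests on 1 library, and the split among the Dcpp copies is uncertain for the reason given above.

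The step from WT 5 to DKO 1 was not the same for each gene. The CPM in WT 5 was 25.1 times that in DKO 1 for Bpifa2 (95% interval 24.3 to 26, exact binomial). The ratio was 15.9 for Dcpp1 (14.5 to 17.5), 19.7 for Dcpp2 (18.6 to 21.0) and 9.11 for Dcpp3 (8.60 to 9.67). For Amy1 it was 121 (106 to 138). These intervals cover counting error only, and reads without molecular identifiers are not independent molecules. Amy1 stands apart from the other members by this measure, and among the Dcpp copies Dcpp3 lies below Dcpp1 and Dcpp2.

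The make-up of the Dcpp counts differed between the high libraries too. In WT 5, 51.7% of the 38541 Dcpp counts were assigned to Dcpp2 (95% Wilson interval 51.2 to 52.2), 29.2% to Dcpp3 (28.7 to 29.6) and 19.1% to Dcpp1 (18.7 to 19.5). In DKO 1, 37.3% of 2799 were assigned to Dcpp2 (35.5 to 39.1), 45.6% to Dcpp3 (43.8 to 47.5) and 17.1% to Dcpp1 (15.7 to 18.5). Dcpp2 led in WT 5 and Dcpp3 led in DKO 1, while the Dcpp1 share differed little. In the other 4 libraries, with 21 to 67 Dcpp counts each, Dcpp1 led with shares from 66.7% (45.4 to 82.8, in WT 1) to 82.1% (71.3 to 89.4, in DKO 4). The few Dcpp counts of those libraries therefore had another make-up than those of WT 5 or DKO 1.

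**Figure D2:**
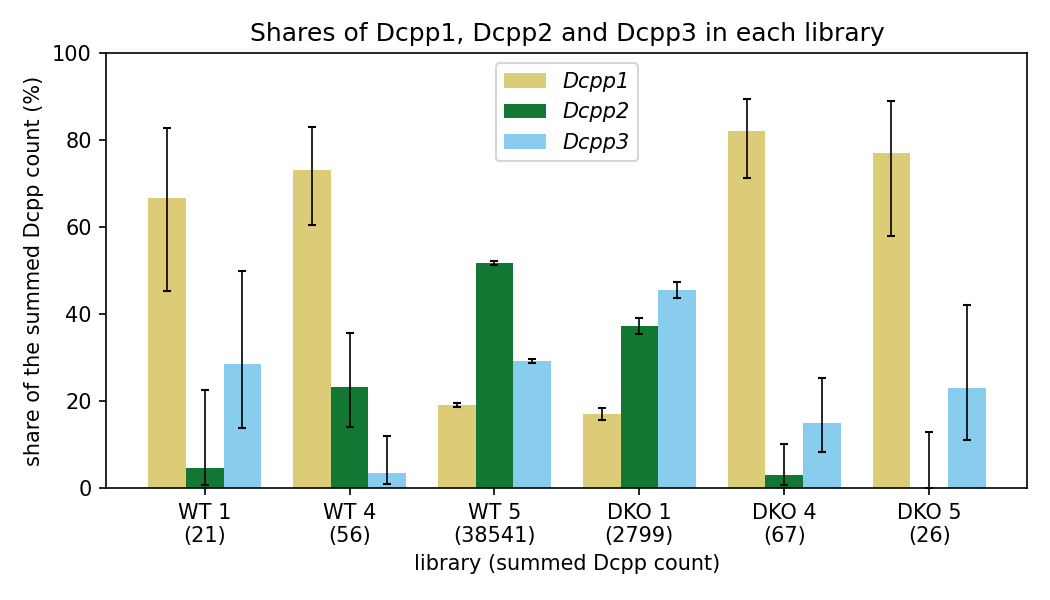
Share of the summed Dcpp count assigned to Dcpp1, Dcpp2 and Dcpp3 in each library, in percent, with the summed count in parentheses and 95% Wilson intervals as bars. Dcpp1 holds most of the few counts in WT 1, WT 4, DKO 4 and DKO 5, Dcpp2 leads in WT 5 (51.7%) and Dcpp3 leads in DKO 1 (45.6%).

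The low counts outside WT 5 and DKO 1 were also set against those of WT 5, since the libraries were pooled for sequencing. The counts of WT 1, WT 4, DKO 4 and DKO 5, as a percentage of the WT 5 count, were 0.0794 to 0.119 for Bpifa2, 0.413 to 0.948 for Amy1, 0.19 to 0.747 for Dcpp1 and 0 to 0.0652 for Dcpp2. For Chia1, a gene named below, they were 0 to 0.0155. The percentage thus differed between genes. Assignment of reads to the wrong library of the pool was not tested.

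The genes whose pattern across the 6 libraries came closest were found among 11484 other rows with a mean of at least 50 normalized counts. Likeness was the root mean square difference of log2(normalized count + 1) after centring each gene on its own mean, so a value of 0 would be an identical pattern. The row nearest to Bpifa2 was Muc19 (difference 0.55, against a median of 3.77 over all candidates), which encodes the gel-forming mucin of the sublingual gland. Cst10 (1.11), a cystatin gene, BC048546 (1.51), Chia1 (1.68), which encodes acidic chitinase, and Dnase1 (1.90), which encodes a secreted nuclease, followed. For the summed Dcpp genes the same rows came first, led by BC048546 (1.05) and Muc19 (1.12). For Amy1 the nearest row was Dnase1 (0.82), followed by Igkv14-100 (0.92), an immunoglobulin segment, Sel1l3 (1.39), Crisp1 (1.52) and Cilp (1.70).

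Muc19 had 120, 53 and 62150 counts in WT 1, 4 and 5, and 3906, 27 and 47 in DKO 1, 4 and 5. BC048546 had 4, 68 and 47408 counts against 3726, 20 and 10. Both were raised in the same pair of libraries as Bpifa2 and the Dcpp genes, with WT 5 over DKO 1 ratios of 16.5 (15.9 to 17) and 13.2 (12.7 to 13.6), inside the range of the Dcpp ratios.

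Chia1 had 0, 0 and 25750 counts in the WT-labelled libraries and 98, 1 and 4 in the DKO-labelled ones. Cst10 had 0, 0 and 5909 against 26, 1 and 0. Their WT 5 over DKO 1 ratios were 272 (223 to 335) and 235 (160 to 360), above that of Amy1. Their DKO 1 levels were still 22.4 and 27.2 times the highest of the other 4 libraries, which had at most 4 counts. Dnase1 had 52, 140 and 5765 counts against 149, 27 and 83, a ratio of 40.0 (34.0 to 47.4), and its DKO 1 level was 1.02 times the highest of the other 4 libraries. Bpifa2, at 25.1, lay between the Dcpp genes and these 3.

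**Figure D3:**
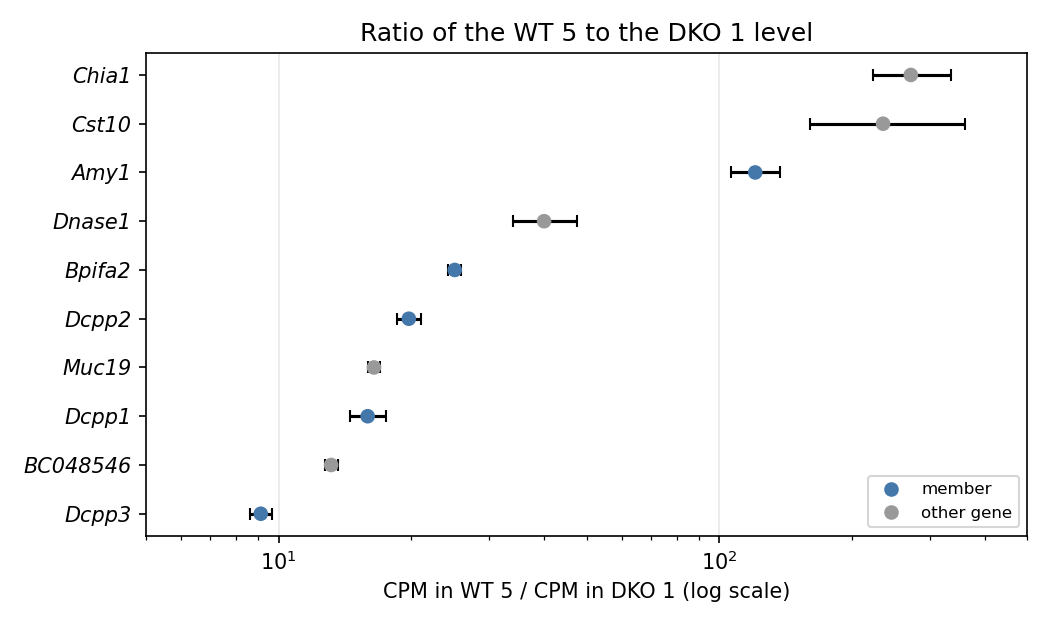
Level (CPM) in WT 5 divided by the level in DKO 1, on a log axis, for 5 members (blue) and 5 of the genes nearest to them in pattern (grey), with exact 95% intervals for counting error. The Dcpp genes, BC048546 and Muc19 lie between 9.11 and 19.7, Bpifa2 at 25.1, and Dnase1, Amy1, Cst10 and Chia1 between 40.0 and 272.

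Smgc, an SMG secretory gene at the same locus as Muc19, did not follow this pattern. It had 295383, 25147 and 207781 counts in WT 1, 4 and 5, and 38539, 112573 and 15983 in DKO 1, 4 and 5. Its highest library, WT 1, held 105 Bpifa2 counts and 21 Dcpp counts in all.

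Rows near the members did not share their levels. Within 250 kb of the Dcpp genes, 15 other rows had a mean of at least 10 counts, and their level in WT 5 ranged from -0.72 to 0.69 on the log2 scale relative to the median of the other 5 libraries. Mapre1 beside Bpifa2 was at 0.21 and Rnpc3 beside Amy1 at 0.03. The 12 BPI fold genes other than Bpi and Lbp had 0 counts in all 6 libraries. Bpi had 1 count in WT 1 and 1 in WT 5. Lbp, which encodes a lipopolysaccharide-binding protein, had 58, 41 and 127 counts in the WT-labelled libraries and 50, 36 and 53 in the DKO-labelled ones, with WT 5 highest here too.

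A uniform rule was then applied to each library, counting rows with at least 50 counts whose CPM was at least 8 times the median of the other 5 libraries. It found 55 of 11859 rows in WT 5, 21 of them immunoglobulin rows, and 25 of 11606 in DKO 1, 11 of them immunoglobulin rows. WT 1 had 61 such rows, and the other 3 libraries had 6 to 12. The rule named 5 members in WT 5, 4 in DKO 1 and 0 in the other libraries. Having many such rows was thus not particular to WT 5, since WT 1 had more without any member. Smr3a, chosen after its values were seen, was also among the rows of WT 5, with 2830 counts there, 0 in DKO 1 and at most 3 elsewhere.

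The comparison of DKO with WT was fitted over all 18606 rows with DESeq2. An adjusted p-value under 0.05 was reached by 2.9% of rows, 1.02% higher and 1.88% lower in DKO. Of the 5 fitted members, 0 were called, because DESeq2 gave none of them a p-value. Its Cook's distance filter, which withholds a p-value where a single library has an outsized pull on the fit, removed 31 rows, 5 of them members, and 19 of the 31 were highest in WT 5. Muc19, BC048546, Chia1, Cst10, Dnase1, Prb1 and Smr3a were removed as well. The edgeR quasi-likelihood test, which has no such filter, also called 0 of the 5, with 1 (Amy1) at an unadjusted p-value under 0.05. As the members were chosen with these counts known, nothing is read from those counts of calls.

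The fitted fold changes show how far single libraries set them. With all 6 libraries the log2 fold changes of DKO over WT ranged from -5.59 (SE 1.73, Amy1) to -3.04 (SE 2.79, Dcpp3), with a median of -4.17 over the 5 fitted members against 0.00 over all rows tested. Without WT 5, Bpifa2 stood at 3.57 (SE 1.86), Dcpp1 at 2.72 (SE 1.5), Dcpp2 at 5.59 (SE 3.37) and Dcpp3 at 6.70 (SE 2.34), so their sign turned, while Amy1 stood at -0.42 (SE 0.27). Without DKO 1 the values ran from -12.46 (Dcpp2) to -5.78 (Dcpp1). Without both libraries, an alternative added after the data were seen, Bpifa2 was at -0.30 (SE 0.37), Dcpp1 at 0.58 (SE 0.75), Dcpp2 at -2.69 (SE 2.14), Dcpp3 at 1.14 (SE 1.36) and Amy1 at -0.65 (SE 0.29).

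**Figure D4:**
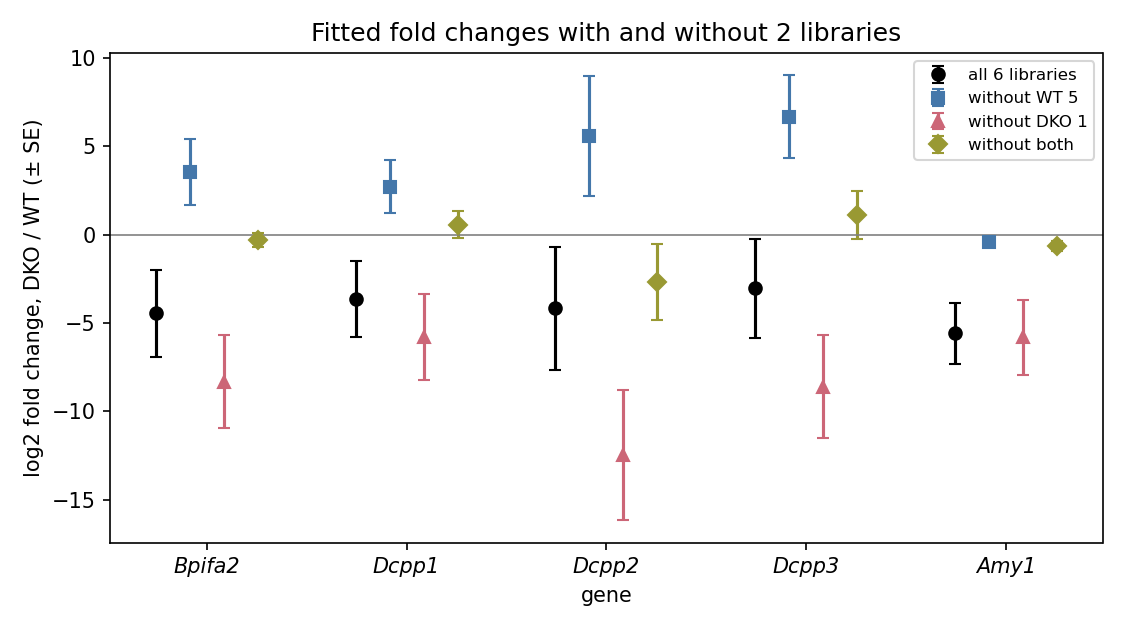
Log2 fold change of DKO over WT (points) with its SE (bars) for the 5 detected genes, fitted on all 6 libraries, without WT 5, without DKO 1 and without both. Bpifa2 and the Dcpp genes are negative with all libraries, positive without WT 5 and between -2.69 and 1.14 without both, and Amy1 moves from -5.59 to -0.42 without WT 5.

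Amy1 shows what the filter withheld. With Cook's filter off, Amy1 was the 1 member that DESeq2 called, although 5 of the 6 libraries lay between 4.41 and 9.71 CPM. It was also called without WT 1 and without WT 4, where the group labelled WT holds 2 libraries, 1 of them WT 5.

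Genes of mucous secretory cells and of the serous parotid were taken from lists, and a place on a list does not mean absence from the SMG. Of 11 genes of mucous secretory cells, 9 were fitted, Muc19 without a p-value, and 2 passed the DESeq2 threshold, both higher in DKO. These were Agr2, a protein disulfide isomerase needed for mucin folding (log2 fold change 1.11 ± 0.18 SE, adjusted p = 3.64e-07 by DESeq2), and Creb3l1, a transcription factor of secretory cells (0.58 ± 0.12 SE, adjusted p = 5.03e-04 by DESeq2). Agr2 had 226, 355 and 271 counts in WT 1, 4 and 5, and 568, 626 and 490 in DKO 1, 4 and 5. For Agr2, neither WT 5 nor DKO 1 stood out. Its groups did not overlap, but the share of all rows higher in every DKO library than in any WT library was not counted. Creb3l1 had 1771, 2343 and 2561 counts against 3128, 3163 and 2763. Both genes were thus counted in every SMG library, and the study names Agr2 among the acinar genes increased in female DKO. That statement rests on the study's RNA sequencing, which these female libraries are part of, and on quantitative PCR of female SMGs. The DESeq2 calls of Agr2 and Creb3l1 held without WT 5, without DKO 1 and without both. Neither held under edgeR (adjusted p = 0.0743 and 0.14), where 0 of the 9 were called and 4 had an unadjusted p-value under 0.05. Muc5b, a gel-forming mucin, and Tff2 were at 0 in all 6 libraries. The summed level of the list without Muc19 was 137 to 160 CPM in the WT-labelled libraries and 171 to 180 CPM in the DKO-labelled ones. Nothing is read from the gap between these ranges. The sum was set mostly by Creb3l1 (mean 96.6 CPM) and Spdef (mean 39.0 CPM). B3gnt6, chosen after its values were seen, had 2, 4 and 105 counts in the WT-labelled libraries and 10, 4 and 0 in the DKO-labelled ones. Its CPM in WT 5 was 25.9 times and in DKO 1 2.39 times the highest of the other 4 libraries. The median log2 fold change of the 9 was 0.20.

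Of 7 genes of the serous parotid, 6 were in the table, 4 were fitted, Prb1 and Dnase1 without a p-value, and 0 passed the DESeq2 threshold, with 2 (Car6 and Pip) at an unadjusted p-value under 0.05. Under edgeR 0 were called and 3 had an unadjusted p-value under 0.05. Car6, a secreted carbonic anhydrase, and Pip, a secreted protein that binds bacteria, are also made by the SMG, and they held 99.4% to 99.998% of the summed level of the list in each library. The 4 others together stood at 217 CPM in WT 5 and at 0.979 to 5.48 CPM in the other 5 libraries. Dnase1, named above for its pattern, held 211 CPM of the WT 5 value. Among the rest Prb1, which encodes a proline-rich protein, had 0, 1 and 162 counts in the WT-labelled libraries and 4, 0 and 0 in the DKO-labelled ones. Prh1, another gene of that family, had at most 1 count per library. The median log2 fold change of the 4 fitted genes was -2.03. Car6 passed the threshold without WT 4, without DKO 1 and with the replicate number as a block, and Pip without DKO 1.

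Markers of other tissues were examined beside these. The 6 pancreatic amylase genes, Amy2a1 and Amy2a2 among them, were at 0 in all 6 libraries. The pancreas acinar genes, among them Prss2 and Cela1, summed to at most 0.293 CPM in any library. The airway genes summed to at most 2.23 CPM, reached in WT 5 and held there mostly by Ltf (55 counts), with Scgb1a1 at 0 throughout and Scgb3a1 at 1 count in DKO 4. The skeletal muscle genes, including Acta1 and Ckm, ranged from 2.12 to 2.20 CPM in the WT-labelled libraries and from 1.65 to 1.87 CPM in the DKO-labelled ones. On this scale 27.8% of all rows tested were lower in every DKO library than in any WT library. In the DESeq2 fit Ckm had a log2 fold change of -0.002 (SE 0.33). The adipocyte genes ranged from 7.35 to 9.05 CPM and from 6.58 to 8.49 CPM, with at most 4 counts of Adipoq or Plin1 in any library. DESeq2 called 0 of the 9 genes fitted in these lists, 4 of the 5 muscle genes and 1 of the 2 airway genes having too low a mean for an adjusted p-value. At an unadjusted p-value under 0.05 stood 1 airway gene with DESeq2 and 0 of the 9 genes with edgeR.

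Lymph node genes, which mark B and T cells and their stroma, were highest in another library than the members. They summed to 18.1, 2.93 and 6.18 CPM in WT 1, 4 and 5, and to 1.28 to 1.70 CPM in the DKO-labelled ones. Being lower in every DKO library than in any WT library was shared, in CPM, by 27.8% of all rows tested. Of 12 genes, 3 were lower in DKO (Ltb, Ms4a1 and Cd3d), 1 without WT 5, 1 without DKO 1 and 0 without both. With edgeR 0 were called and 9 had an unadjusted p-value under 0.05. Ms4a1, a B cell gene, had 61 counts in WT 1 and 6 in WT 5. Ltb, a lymphotoxin gene, had 68, 21 and 40 counts in the WT-labelled libraries and 9, 7 and 5 in the DKO-labelled ones (log2 fold change -2.51 ± 0.59 SE, adjusted p = 0.00247 by DESeq2).

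The defining genes of the SMG were present in all 6 libraries, WT 5 and DKO 1 included. Spt1 and Prol1, which encode abundant acinar secretory products, were counted at least 8386042 and 152413 times per library. The 8 acinar genes summed to 359007 to 394778 CPM in the WT-labelled libraries and 383161 to 407765 CPM in the DKO-labelled ones. Nearly all of this was Spt1, with a mean of 374609 CPM against 8760 CPM for Prol1, so the sum says little about the other acinar genes. Smr2 and Smr3a were not present throughout, Smr2 with at most 3 counts and Smr3a as given above. Of the 7 acinar genes fitted, 2 were called, both higher (Agt and Aqp5), with 1 called without WT 5 and 4 without DKO 1, and of the 8 duct genes 5 were lower, among them Egf, Klk1b22, Klk1b9 and Klk1b24, with 4 called without WT 5. With edgeR 1 acinar and 1 duct gene were called. In WT 5 Egf, a duct growth factor, had 78201 counts, the highest of the 6 libraries. Of the genes named above, Muc19, BC048546, Chia1 and Cst10 were raised in WT 5 and, to a lesser degree, in DKO 1. Dnase1 and Smr3a were raised in WT 5 alone, and Prb1 and B3gnt6 mainly there, with 4 and 10 counts in DKO 1. All except Prb1, B3gnt6 and Smr3a were picked for a pattern like that of the members, and B3gnt6 and Smr3a after their values were seen. Car6, Pip, Spt1, Prol1 and Smgc did not follow the members. Whether tissue of the sublingual or parotid gland was carried into those 2 samples was not tested, as no library of either gland was analysed here.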

How the data were processed

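RNA of 6 SMGs was sequenced by the authors from unstranded Nextera XT libraries on a HiSeq2500. The counts used are those the authors deposited, raw and unfiltered, with 1 row per gene symbol and 1 column per library. The submitters' processing notes name STAR 2.5.2a, DESeq2, edgeR and limma, and the builds GRCm38, mm10 and GRCh38, without a role. The counting tool and the annotation are not given in the sources used here. A filtered count table and a normalized table were not used. Strand was not kept, so antisense reads count toward a gene they overlap.

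DESeq2 1.42.0 in R 4.3.3 was run on rows whose summed count was 10 or more, with a two-sided Wald test, median-of-ratios size factors, no shrinkage, Cook's filter and independent filtering at 0.1. Adjustment was by Benjamini-Hochberg over the whole table, with a threshold of 0.05. An adjusted p-value was missing for 2556 rows, 2525 of them for a low mean. edgeR 4.0.16 was run as an alternative, with TMM scaling. Scripts were tested on simulated data. CPM and RPKM used all counts of a library and the merged GENCODE M21 exons. Sequences were compared with Biopython 1.88, and intervals were computed with SciPy 1.17.1.

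The members and gene lists were chosen with earlier results of these data known. Genes named were the members, Smgc, the first 2 of each list, up to 3 genes per list past the threshold, with a mean normalized count of 10 or more, taken by the size of their log2 fold change, and the 5 rows nearest in pattern to Bpifa2, to the summed Dcpp genes and to Amy1. Others are said to be chosen after their values were seen, or complete a count of the lists. Some genes of the lists are not reported here.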

Additional observations from a re-analysis of the deposited data

How the results depend on the processing

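Over all rows, DESeq2 called 539, edgeR 10, DESeq2 with total counts as size factors 1472 (62 higher and 1410 lower) and with the replicate number as a block 343. With 1 library left out the count ran from 149 (without WT 5) to 817 (without WT 4), with 151 to 170 without WT 1, DKO 4 or DKO 5, and without both WT 5 and DKO 1 it was 183, of which 144 were among the 539. Of the genes on the mucous and parotid lists 2 were called, Agr2 and Creb3l1, both counted in every SMG library. Under edgeR 0 were called (7 at an unadjusted p-value under 0.05). With 1 library left out 2 to 4 were called, the 4 without DKO 1. The log2 fold changes of the members ranged, with 1 library left out, from -6.16 to -0.42 for Amy1, -8.31 to 3.57 for Bpifa2, -5.78 to 2.72 for Dcpp1, -12.46 to 5.59 for Dcpp2 and -8.59 to 6.70 for Dcpp3, the highest each time without WT 5. Without both WT 5 and DKO 1, Amy1 was at -0.65 and Dcpp1 at 0.58. With the replicate block Amy1 was at -1.81, Dcpp1 at 0.32 and Dcpp3 at 2.27, the latter pair with the sign turned. The cause of these shifts was not tested. Libraries with the same number did not deviate together (correlations of -0.13, -0.02 and -0.26 for numbers 1, 4 and 5). With so few libraries per group, these values cannot tell whether same-numbered libraries share a litter or a batch. The other settings moved the members' values by less than the SD between replicates. This includes Bpifa2 (-0.54) and Dcpp2 (-2.61) under the block. That SD was 4.49 for Bpifa2 and 6.18 for Dcpp2 on the log2 scale. WT 5 and DKO 1 widen it, so a shift below it can still be large. Counts under about 3 per library limit statements on Bpifb1, Dcpp2 and the other genes at 0.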
